A study of Mus musculus with 12 samples.

Results

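The levels of 10 genes were followed in L929 cells: Errfi1, Epha2, Dusp4, Dusp6, Spry2, Spry4, Fosl1, Egr1, Etv4 and Etv5. They were found by mouse symbol through the Entrez identifiers of the table, which held 17571 genes, and all 10 were present and passed the filter on low values that left 10412 genes for testing. Errfi1 and Epha2 were selected on their lower values with BX795 alone than in mock, so those values are described here without a test. The other 8 are known for their relation to ERK and were listed to ask whether the lower level of the first pair extended to other ERK-dependent genes. They were listed with earlier results of these data known, so their tests are not independent of that knowledge.

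L929 is a mouse fibroblast line from subcutaneous connective tissue of the C3H/An strain. RNA was sequenced in 4 groups of 3 libraries. Mock cells received DMSO, pEGFP-N1 cells received DMSO and a plasmid that expresses EGFP, BX795 cells received the inhibitor at 0.5 μM, and BX795 + pEGFP-N1 cells received both. Pretreatment with BX795 or DMSO lasted 1 h and cells were taken at 6 h, so the libraries stand for 1 cell line, 1 dose and 1 time. BX795 blocks TBK1, which relays the cGAS and STING signal to IRF3, and it is known to act on other kinases too, among them PDK1.

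ERK is the last kinase of the RAS, RAF and MEK cascade that growth factor receptors switch on. Active ERK phosphorylates transcription factors of the ETS and AP-1 families, and the genes it turns on include its own brakes: dual-specificity phosphatases that remove the activating phosphates from ERK, and Sprouty proteins that dampen signalling between receptor and RAS. Transcripts of these brakes are short-lived and are widely read as a record of recent ERK output. In fibroblasts the cascade is best known for driving entry into the cell cycle after serum or growth factors.

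The deposited unit is FPKM, fragments scaled to transcript length and to the fragments mapped, which allows levels of different genes to be set side by side. Read totals cannot be had from it, and library depth is therefore unknown. Differences are given on the log2(FPKM + 1) scale with their standard error (SE), which understates the change of genes at low FPKM, and ratios are of group means of FPKM. The p-values are from limma with Benjamini-Hochberg adjustment over the 10412 genes, and a gene was called at an adjusted p under 0.05. The labels do not say whether the 3 libraries of a group came from separate cultures, so these p-values measure only the spread between libraries, which may be technical. In RNA from whole cultures, a smaller share of cells that express a gene and less of its RNA per cell cannot be told apart.

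Of the 12 libraries, 2 stood apart from their labels, as read from interferon-stimulated genes that plasmid DNA is known to induce. Ifit1, an antiviral gene induced by interferon, was at 96.67 and 95.24 FPKM in pEGFP-N1 replicates 1 and 3 but was listed at 0 in the library labelled pEGFP-N1 replicate 2. It was at 0.17 and 0.57 FPKM in BX795 + pEGFP-N1 replicates 2 and 3 but at 92.64 FPKM in the library labelled BX795 + pEGFP-N1 replicate 1. Mock and BX795 libraries held at most 0.45 FPKM. Results that rest on these libraries are therefore given with and without both. Among fibroblast markers, Vim (1576 to 2101 FPKM) and Col1a1 (48.1 to 78.4 FPKM) were high, while Thy1 and Dcn stayed at or below 0.13 FPKM. All 6 epithelial and all 4 endothelial markers lay under 1 FPKM, with summed levels of 0.36 to 0.65 and 0.06 to 0.22 FPKM. Of 6 leukocyte markers only Cd68 was high (111 to 138 FPKM), and Ptprc reached at most 0.01 FPKM. The summed leukocyte level was 112.6 to 119.2 FPKM in mock and 111.5 to 115.9 FPKM with BX795.

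Errfi1 encodes MIG6, a feedback inhibitor that binds receptors of the EGFR family. Its 3 mock libraries stood at 27.72, 24.49 and 26.08 FPKM and its BX795 libraries at 14.76, 15.15 and 14.77 FPKM, a ratio of means of 0.571. The pEGFP-N1 libraries stood at 18.45, 15.43 and 19.21 FPKM, and the BX795 + pEGFP-N1 libraries at 18.8, 15.28 and 16.98 FPKM. Mock was thus above every one of the other 9 libraries. Epha2 encodes an ephrin receptor tyrosine kinase whose transcription is known to respond to ERK. It measured 30.76, 32.26 and 28.38 FPKM in mock against 16.18, 18.76 and 17.09 FPKM with BX795, a ratio of 0.569. It was at 22.47, 20.16 and 21.66 FPKM with pEGFP-N1 and at 22.01, 16.49 and 16.82 FPKM with both. Here too all 9 other libraries lay below mock. The differences between BX795 and mock were -0.77 (SE 0.0928) for Errfi1 and -0.78 (SE 0.104) for Epha2, and they are not tested because they chose the genes.

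Both genes lie on chromosome 4 of GRCm38, Errfi1 at 150853919-150868892 and Epha2 at 141301240-141329384, each on the plus strand, and Errfi1 overlaps an antisense gene, 1700045H11Rik. How the authors' counting treated strand is not given in the sources used here. The 250 bases before a RefSeq start (GRCm38.p6) are shown for these genes because their levels ran together, beside Dusp6, whose level also differed. Capitals mark matches to a cyclic AMP response element (TGACGTCA) and to an EGR motif (GCGTGGG, here on the reverse strand as CCCACGC), both strands having been searched.
Errfi1 promoter, chr4:150854820-150855069, + strand: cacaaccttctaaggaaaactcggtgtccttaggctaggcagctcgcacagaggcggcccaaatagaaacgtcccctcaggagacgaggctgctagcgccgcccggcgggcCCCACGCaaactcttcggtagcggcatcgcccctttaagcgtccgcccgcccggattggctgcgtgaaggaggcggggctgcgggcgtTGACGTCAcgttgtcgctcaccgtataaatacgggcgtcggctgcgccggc
Epha2 promoter, chr4:141300971-141301220, + strand: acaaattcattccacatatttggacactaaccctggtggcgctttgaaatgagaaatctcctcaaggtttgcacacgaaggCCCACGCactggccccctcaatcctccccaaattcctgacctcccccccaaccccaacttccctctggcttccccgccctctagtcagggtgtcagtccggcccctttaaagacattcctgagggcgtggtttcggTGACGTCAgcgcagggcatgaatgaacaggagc
Dusp6 promoter, chr10:99262981-99263230, + strand: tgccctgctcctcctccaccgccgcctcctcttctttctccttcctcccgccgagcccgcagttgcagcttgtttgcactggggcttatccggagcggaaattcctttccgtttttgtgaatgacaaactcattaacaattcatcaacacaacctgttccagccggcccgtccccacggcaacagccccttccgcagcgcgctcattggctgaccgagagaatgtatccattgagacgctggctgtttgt
The Errfi1 sequence belongs to the second of its RefSeq starts, and the first had no match. In Errfi1 the response element lay 51 bases before the start and the EGR match 139 bases before it, and in Epha2 they lay 33 and 169 bases before it. The bases just after the start were found in a GENCODE transcript of the gene for Dusp6, but not for Errfi1 or Epha2. These distances therefore hold for the RefSeq starts only. Of 32851 promoter windows of this length, 1.55% held the response element and 4.3% the EGR motif. An ETS motif (CCGGAA, in 12% of windows), an AP-1 motif (TGANTCA, in 6.75%) and a CArG box (in 1.47%) had no match in the Errfi1, Epha2, Dusp6, Spry2 or Etv5 windows. These are 5 of the 10 members, and windows of Dusp4, Spry4, Fosl1, Egr1 and Etv4 are not described here. A match is a description of these letters, and none of them was tested for binding here.

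**Figure D1:**
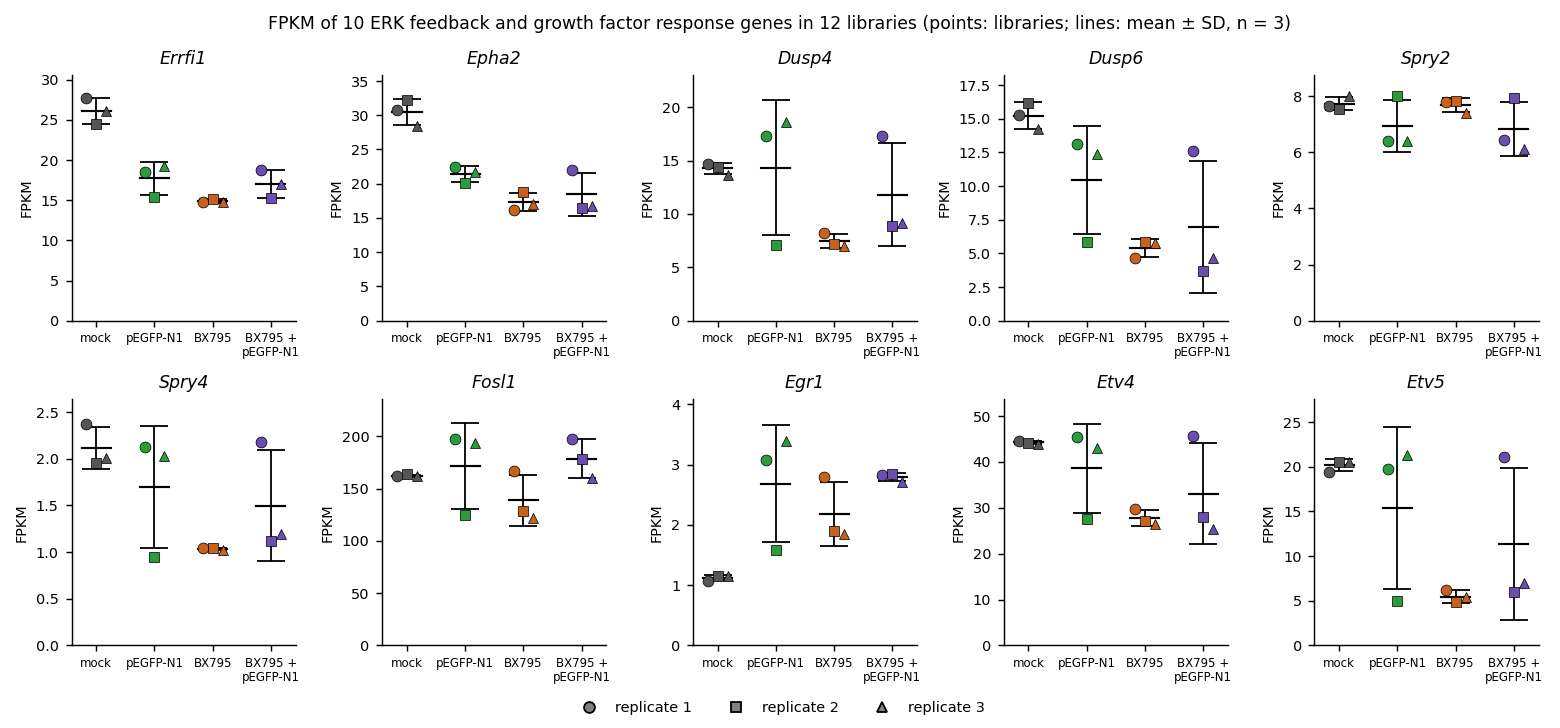
FPKM (vertical axes, from 0) of each member in the 12 libraries, by group. Points are libraries with a shape for each replicate number, and lines are the mean ± SD of 3 libraries. BX795 lies below mock in every library for 7 members, and Etv5 spans 4.93 to 21.36 FPKM within pEGFP-N1 alone.

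Dusp4 and Dusp6 encode phosphatases that inactivate ERK, in the nucleus and in the cytoplasm respectively. In GRCm38 Dusp4 lies on chromosome 8 at 34807297-34819894 and Dusp6 on chromosome 10 at 99263231-99267489, both on the plus strand. Dusp6 measured 15.29, 16.18 and 14.21 FPKM in mock against 4.64, 5.81 and 5.78 FPKM with BX795, a ratio of 0.355. Its difference of -1.34 was the third lowest of the 10412 genes. Dusp4 measured 14.71, 14.41 and 13.66 FPKM in mock against 8.18, 7.14 and 6.96 FPKM with BX795, a ratio of 0.521 and a difference of -0.86. The BX795 libraries lay below all mock libraries for both genes. In the fit of all 12 libraries neither was called (limma, SE 0.35 and adjusted p = 0.186 for Dusp6, SE 0.303 and adjusted p = 0.284 for Dusp4). With only mock and BX795 in the fit, the SE was 0.0843 and 0.067 and the adjusted p 6.33e-05 and 0.000132. The SD of log2 values for Dusp6 was 0.0881 in mock and 0.155 with BX795, against 0.578 with pEGFP-N1 and 0.819 with both, and the fit of all libraries shares 1 spread among these groups.

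Spry2 and Spry4 are Sprouty proteins, inhibitors of signalling from receptor tyrosine kinases. Spry4 measured 2.37, 1.96 and 2.01 FPKM in mock against 1.04, 1.04 and 1.02 FPKM with BX795, a ratio of 0.489, and its difference of -0.61 had an adjusted p of 0.249 in the limma fit of 12 libraries and 0.00157 in that of mock and BX795. Its level is near the filter, and with a pseudocount of 0.01 in place of 1 the difference was -1.02. Spry2 measured 7.64, 7.55 and 8.01 FPKM in mock against 7.8, 7.83 and 7.4 FPKM with BX795. The groups overlapped, and the difference was -0.01, with a 95% interval of -0.13 to 0.12 from mock and BX795 alone and of -0.23 to 0.21 from 12 libraries.

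Etv4 and Etv5 are ETS transcription factors of the PEA3 group, textbook targets of growth factor signalling. Etv4 lies on chromosome 11 at 101769742-101785371 and Etv5 on chromosome 16 at 22381309-22439719, both on the minus strand. Etv5 showed the lowest difference of all 10412 genes on this scale, -1.71. It measured 19.37, 20.56 and 20.49 FPKM in mock against 6.18, 4.83 and 5.4 FPKM with BX795, a ratio of 0.272. Etv4 measured 44.65, 44.1 and 43.94 FPKM in mock against 29.7, 27.01 and 26.4 FPKM with BX795, a ratio of 0.626 and a difference of -0.66. No BX795 library reached the mock range for either gene. The adjusted p from limma was 0.219 for Etv5 and 0.254 for Etv4 over 12 libraries, and 1.69e-05 and 0.000132 over mock and BX795 alone. The position of Etv5 in the order ran from 1 to 9 over the 12 settings that kept every library of both groups, and that of Dusp6 from 2 to 15, with the places furthest from the lowest at a pseudocount of 0.01. In the annotation, 30.3% of the 31-base words of Etv5 are shared with Gm4798, so its reads could be split between these genes. No gene with deposited values bore the symbol Gm4798, so its level cannot be given.

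The AP-1 and early response factors among the members were not called lower in BX795 minus mock when every mock and BX795 library was kept. Fosl1, which encodes the AP-1 protein FRA1, measured 161.75, 163.64 and 162.09 FPKM in mock against 166.9, 128.18 and 121.43 FPKM with BX795. The first BX795 library lay above mock and the other two below it. The difference was -0.24 (SE 0.166, limma adjusted p = 0.5, and 0.117 with mock and BX795 alone). The latter fit gave -0.38 without BX795 replicate 1 (adjusted p = 3.97e-05), and it was not called without replicate 2 or without replicate 3 (-0.15 without the latter), so the call rests on leaving out replicate 1. Of the 31-base words of Fosl1, 54.5% are shared with Ccdc85b on the opposite strand, which stood at 16.6 to 21.76 FPKM over mock and BX795, so reads of this pair may be assigned to either gene. Egr1, an immediate early transcription factor, measured 1.07, 1.15 and 1.15 FPKM in mock against 2.8, 1.9 and 1.85 FPKM with BX795, a ratio of 1.94. All BX795 libraries lay above mock, with a difference of 0.57 (limma adjusted p = 0.251 over 12 libraries and 0.0105 over mock and BX795).

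Counted over the 8 members other than Errfi1 and Epha2, 0 were called in the fit of 12 libraries (adjusted p 0.186 to 0.972), where 0.0288% of genes were called lower and 0.0384% higher. In the fit of mock and BX795 alone, 5 were lower (Dusp4, Dusp6, Spry4, Etv4 and Etv5) and 1 higher (Egr1), where 7.97% of genes were called lower and 12.7% higher. The same 6 were called in the fit of 10 libraries without both libraries named above, where 5.12% and 8.96% were called. The median difference of the 8 was -0.64, beside 0.028 over all tested genes. With Errfi1 and Epha2 included, BX795 libraries lay below every mock library for 7 members and above for 1, which 16.2% and 23.6% of tested genes did. For Errfi1 and Epha2 that count only repeats how they were chosen.

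**Figure D2:**
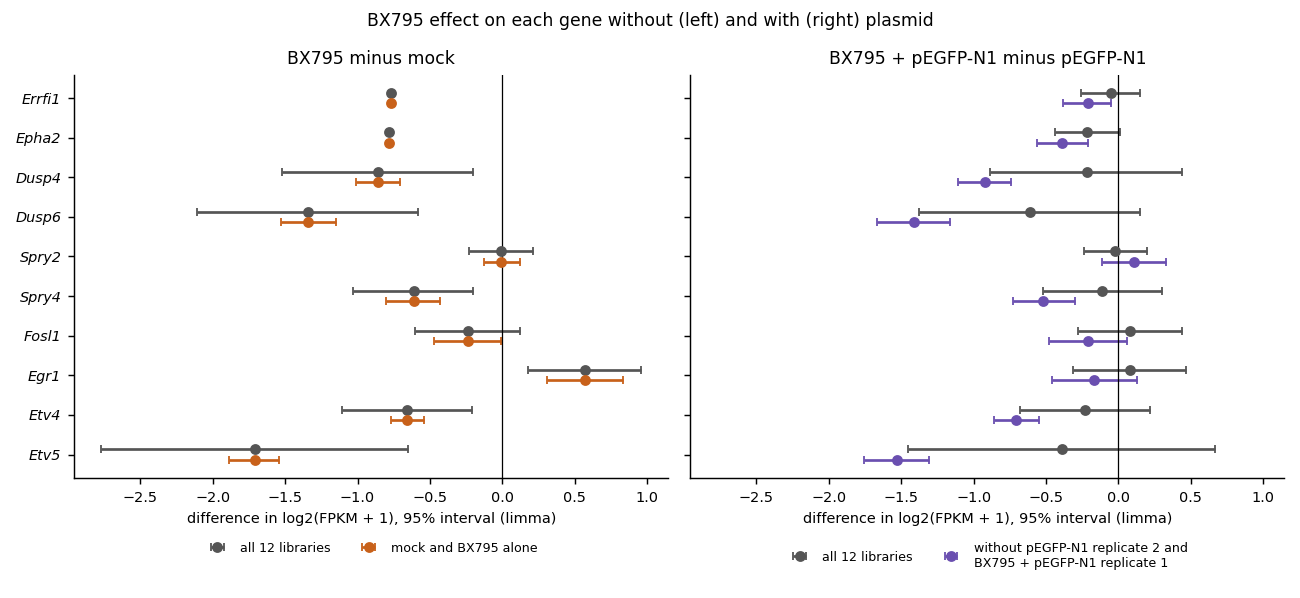
Difference in log2(FPKM + 1) for each member with its 95% interval from limma, for BX795 minus mock (left) and BX795 + pEGFP-N1 minus pEGFP-N1 (right). Errfi1 and Epha2 have no interval on the left, where they were selected. Grey points are from all 12 libraries and coloured points from mock and BX795 alone (left) or without both libraries that stood apart (right). The intervals for Etv5 narrow from -2.77 to -0.65 to -1.89 to -1.54 on the left, and every interval of Spry2 includes 0.

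BX795 + pEGFP-N1 against pEGFP-N1 asked the same in transfected cells. Its libraries are not those on which Errfi1 and Epha2 were selected, but the members were listed with earlier results of the whole series known, so it is not an independent check. As labelled, no member separated the groups, although 1.41% of genes were lower in every library. Etv5 was at 19.8, 4.93 and 21.36 FPKM with pEGFP-N1 and at 21.14, 5.97 and 6.97 FPKM with both. Dusp6 was at 13.12, 5.87 and 12.34 FPKM with pEGFP-N1 and at 12.6, 3.72 and 4.62 FPKM with both. Etv4 was at 45.35, 27.45 and 43.05 FPKM with pEGFP-N1 and at 45.7, 28.04 and 25.44 FPKM with both. In each gene replicate 2 of pEGFP-N1 was low and replicate 1 of the combination was high. Differences ran from -0.61 for Dusp6 to 0.08 for Fosl1 and Egr1. With limma, 0 of 10 members were called (adjusted p 0.959 to 0.991), as were 0.0% of all genes lower and 0.0% higher, while 166 genes had an unadjusted p under 0.05.

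Without the library labelled pEGFP-N1 replicate 2 and the library labelled BX795 + pEGFP-N1 replicate 1, 2 libraries stood against 2 in a fit of 10. There 6 of 10 members were called lower and 0 higher, where 7.6% of genes were called lower and 10.5% higher. The 6 were Etv5 (-1.53, limma adjusted p = 3.95e-06), Dusp6 (-1.41, 1.97e-05), Dusp4 (-0.92, 4.48e-05), Etv4 (-0.71, 9.59e-05), Spry4 (-0.52, 0.00569) and Epha2 (-0.39, 0.00917). Errfi1 differed by -0.21 (SE 0.0753, limma adjusted p = 0.0705). Spry2 (0.11), Fosl1 (-0.21) and Egr1 (-0.17) had adjusted p of 0.469, 0.236 and 0.4. Both libraries were left out because of their interferon-stimulated genes, and the exclusion was chosen with earlier results of these data known.

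**Figure D3:**
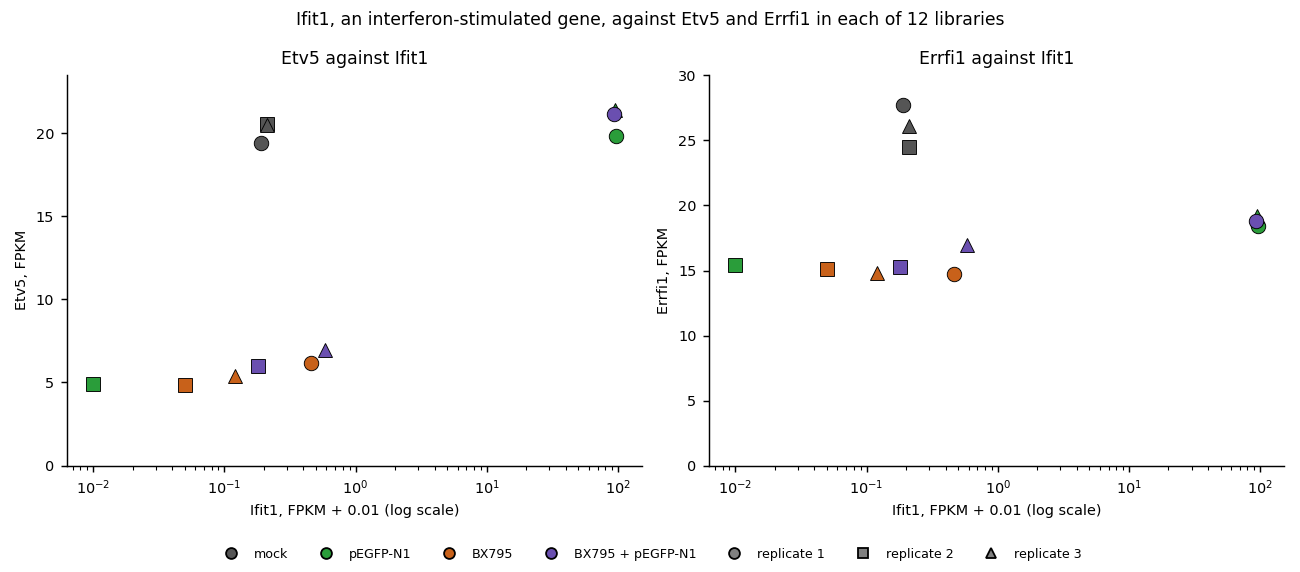
Each of 12 libraries by Ifit1 (horizontal axis, FPKM + 0.01, log scale) and by Etv5 or Errfi1 (vertical axes, FPKM from 0). Colours are groups and shapes replicate numbers. Etv5 is at 4.93 FPKM in pEGFP-N1 replicate 2, where Ifit1 is listed at 0, and at 21.14 FPKM in BX795 + pEGFP-N1 replicate 1, where Ifit1 is at 92.64 FPKM. Errfi1 in the libraries with high Ifit1 (18.45 to 19.21 FPKM) lies between BX795 and mock.

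The remaining members are given here by library for the transfected groups. Dusp4 stood at 17.33, 7.09 and 18.59 FPKM with pEGFP-N1 and at 17.34, 8.87 and 9.13 FPKM with both. Spry4 stood at 2.13, 0.95 and 2.03 FPKM and at 2.18, 1.12 and 1.19 FPKM. As in Etv5, the library labelled pEGFP-N1 replicate 2 was the lowest of its group and the library labelled BX795 + pEGFP-N1 replicate 1 the highest of its group, and the cause was not tested. Spry2 stood at 6.4, 7.99 and 6.41 FPKM with pEGFP-N1 and at 6.43, 7.92 and 6.12 FPKM with both, where replicate 2 was the highest in each group. Fosl1 stood at 197.19, 124.42 and 194.11 FPKM and at 197.58, 178.61 and 160.06 FPKM. Egr1 stood at 2.82, 2.84 and 2.71 FPKM with both, above all mock libraries.

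With the plasmid alone, Errfi1 and Epha2 also stood below mock. This comparison shares the mock libraries with the one that chose Errfi1 and Epha2, so their values are given without a test: -0.54 (SE 0.0928) and -0.49 (SE 0.104), and -0.45 for each without both libraries. Errfi1, Epha2 and Dusp6 lay below all mock libraries with pEGFP-N1 and Egr1 above, as did 7.41% and 5.52% of genes. Egr1 was at 3.08, 1.58 and 3.39 FPKM with the plasmid. With limma, 0 of the other 8 were called over 12 libraries (adjusted p 0.451 to 1.0; 0.0% of genes lower and 0.0672% higher). Over 12 libraries the differences were 0.76 for Egr1, 0.05 for Fosl1, -0.1 for Dusp4, -0.14 for Spry2, -0.22 for Etv4, -0.23 for Spry4, -0.57 for Dusp6 and -0.59 for Etv5. Without both libraries, Egr1 (1.0, adjusted p = 0.000601) and Dusp4 (0.31, adjusted p = 0.0489) were called higher, where 1.56% of genes were called lower and 2.2% higher. The direction for Dusp4 thus depended on leaving these libraries out. Etv5 (0.03, 95% interval -0.18 to 0.24), Etv4 (95% interval -0.15 to 0.14) and Spry4 (-0.01, 95% interval -0.21 to 0.19) were not called. Dusp6 (-0.24, -0.47 to -0.01), Spry2 (-0.24, -0.44 to -0.04) and Fosl1 (0.27, 0.02 to 0.51) were not called either (adjusted p 0.244, 0.182 and 0.217), although their unadjusted 95% intervals exclude 0.

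Whether the BX795 effect differed with and without plasmid was tested as the difference between both effects. None of the 8 was called in the limma fit of 12 libraries (adjusted p 0.842 to 0.984), where 0.0% of all genes were called and 407 had an unadjusted p under 0.05. None was called without both libraries, where 1.27% of all genes were called. In the latter it was -0.07 (95% interval -0.4 to 0.26) for Dusp6, -0.05 (-0.25 to 0.16) for Etv4, 0.18 (-0.11 to 0.47) for Etv5 and -0.74 (-1.12 to -0.36, adjusted p = 0.0921) for Egr1. For Errfi1 and Epha2 it was 0.72 (SE 0.131) and 0.56 (SE 0.147) over 12 libraries, and 0.56 (SE 0.0971) and 0.39 (SE 0.105) without both. These are given without a test since the difference holds the comparison that chose them.

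Other genes of the pathway were taken from lists compiled with earlier results of these data known, and no list gene was called over 12 libraries. The counts that follow are from mock and BX795 alone, where 7.97% of all genes were called lower and 12.7% higher. Beside them stand the counts in BX795 + pEGFP-N1 minus pEGFP-N1 without both libraries, where 7.6% were called lower and 10.5% higher. Of 15 tested genes of common ERK signatures, 10 were called lower and 2 higher (7.97% and 12.7% of all genes), with a median of -0.43, and 5 were lower and 2 higher in transfected cells. Ier3, an early response gene of cell survival, went from 53.35, 52.29 and 51.57 FPKM in mock to 40.25, 31.14 and 30.44 FPKM with BX795 (-0.62, limma adjusted p = 0.00261 and 0.145 over 12 libraries). Etv1, the third PEA3 factor, went from 9.24, 8.87 and 9.16 FPKM to 4.76, 6.9 and 6.42 FPKM (-0.53, adjusted p = 0.00995 and 0.183). Dusp5, a nuclear ERK phosphatase, went from 6.49, 6.55 and 5.35 FPKM to 3.96, 3.38 and 3.53 FPKM (-0.62, adjusted p = 0.0018 and 0.185). In all 3 every BX795 library was below mock. Chosen after their values were seen, Hmga2, a chromatin architectural protein (-1.0, adjusted p = 7.94e-05), and Ccnd1, cyclin D1 (-0.62, adjusted p = 8.14e-05), were lower as well, while Myc (0.0) and Phlda1 (0.05) were not called. Lif, a cytokine of the interleukin-6 family, was higher, from 2.14, 2.49 and 2.61 FPKM in mock to 11.47, 8.24 and 8.13 FPKM (1.58, adjusted p = 0.000112 and 0.218). Bhlhe40, a transcriptional repressor, was the other gene called higher, from 27.62, 27.25 and 26.76 FPKM to 35.16, 32.04 and 33.24 FPKM (0.29, adjusted p = 0.0044 and 0.263).

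Immediate early genes are those that serum and stress induce within minutes. Of 18 listed, 12 passed the filter, and Nr4a1 is left out of the counts because every mock library was under 1 FPKM and it passed only through libraries where it is high. Of the other 11, 5 were called higher and 1 lower (12.7% and 7.97% of all genes), with a median of 0.18, and 5 were higher and 1 lower in transfected cells. Junb, an AP-1 protein, went from 18.05, 20.29 and 21.17 FPKM in mock to 36.68, 32.66 and 32.39 FPKM with BX795 (0.75, limma adjusted p = 0.000274 and 0.219 over 12 libraries). Nr4a1, an orphan nuclear receptor, went from 0.37, 0.45 and 0.34 FPKM to 1.97, 1.61 and 1.68 FPKM (a difference of 0.99, given without a test for that reason). Zfp36, which promotes decay of messenger RNA, rose by 0.52 (adjusted p = 0.00476 and 0.171). The gene called lower was Ier2 (-0.3, adjusted p = 0.0209), named after its value was seen, and Fos, Egr2, Egr3, Atf3 and Gem stayed under 1 FPKM in every library.

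Of 14 tested members of the other phosphatases and feedback inhibitors, 4 were called lower and 2 higher (7.97% and 12.7% of all genes), with a median of -0.13, and 3 were lower and 2 higher in transfected cells. Dusp7, a cytoplasmic ERK phosphatase like Dusp6, went from 19.18, 18.41 and 19.72 FPKM in mock to 12.44, 12.81 and 14.05 FPKM (-0.51, limma adjusted p = 0.000653 and 0.246 over 12 libraries). Spred3 (-0.45, adjusted p = 0.0221) and Dusp2 (-0.38, adjusted p = 0.01) were lower, and Dusp16, which acts mainly on JNK, was higher (0.36, adjusted p = 0.00484). The cascade itself, from RAS to ERK with its adaptors and ETS targets, held 28 tested genes, of which 1 was called lower and 3 higher (7.97% and 12.7% of all genes), with a median of 0.01, and 1 was lower and 3 higher in transfected cells. In mock and BX795 alone, the shares of this list were no larger than those of all genes. Ets2 (0.46, adjusted p = 0.00138) and Mknk2, a kinase that ERK activates (0.54, adjusted p = 0.00165), were among those higher.

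Of 22 growth factor receptors, 10 were tested, and 2 were called lower and 2 higher (7.97% and 12.7% of all genes), with a median of -0.01, and 1 was lower and 1 higher in transfected cells. Met, the receptor of hepatocyte growth factor, was lower (-0.4, limma adjusted p = 0.00413) as was Axl (-0.24, adjusted p = 0.031), and the collagen receptor Ddr1 was higher (0.34, adjusted p = 0.00164). Egfr, the receptor that MIG6 inhibits, stayed under 1 FPKM in every library. Of 11 tested growth factors and ephrins, 4 were called lower and 3 higher (7.97% and 12.7% of all genes), with a median of -0.08, and 1 was lower and 3 higher in transfected cells. Efna3 (-0.47, adjusted p = 0.017) and Efnb2 (-0.25, adjusted p = 0.0305), ligands of Eph receptors, and Hbegf, a ligand of EGFR (-0.47, adjusted p = 0.00314), were lower. The 3 called higher, named after their values were seen, were Fgf7, a fibroblast growth factor (0.77, adjusted p = 0.000222), Efna2 (0.36, adjusted p = 0.0105) and Vegfa (0.2, adjusted p = 0.0236). Of 12 tested genes that YAP and SRF control, 4 were called lower and 0 higher (7.97% and 12.7% of all genes), with a median of -0.15, and 2 were lower and 0 higher in transfected cells. Ankrd1, a YAP target, went from 45.97, 41.95 and 42.25 FPKM in mock to 26.09, 30.57 and 30.0 FPKM (-0.57, adjusted p = 0.000753 and 0.0823 over 12 libraries), and Nuak2 (-0.4, adjusted p = 0.0105) and Amotl1 (-0.22, adjusted p = 0.017) were lower.

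**Figure D4:**
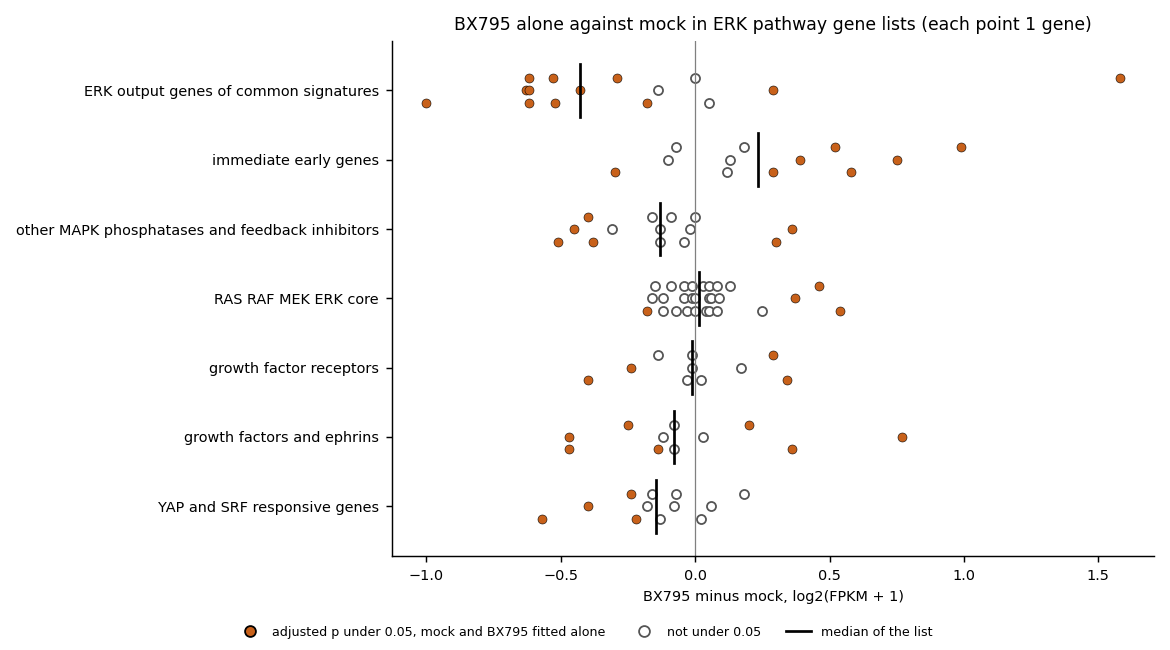
BX795 minus mock in log2(FPKM + 1) (horizontal axis) for each tested gene of 7 pathway lists (rows). Filled points had an adjusted p under 0.05 with mock and BX795 fitted alone, open points did not, and bars are list medians. ERK signature genes centre on -0.43 with Lif at 1.58, immediate early genes on 0.23 with Nr4a1 included, and the RAS to ERK cascade on 0.01.

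Over the 12 libraries, the tested genes whose log2 levels ran most like Errfi1 were Atf6 (Pearson r 0.978), Fam111a (0.972), Osmr (0.958), Scg5 (0.95) and Frmd6 (0.947), with Epha2 in place 7 (0.94). Those most like Epha2 were Ankrd1 (0.971), Trib2 (0.964), Aqp1 (0.961), Sec24d (0.96) and Osmr (0.96), with Errfi1 in place 16. Dusp6 stood in place 37 for Epha2 (0.91) and 92 for Errfi1 (0.858), and Etv5 in places 227 (0.79) and 149 (0.821). Egr1 ran opposite to both (-0.667 and -0.595). Over the 10 libraries without both that stood apart, an alternative chosen after seeing the data, r with Epha2 was 0.933 for Dusp6, 0.851 for Etv5 and -0.727 for Egr1, and r with Errfi1 was 0.872, 0.849 and -0.7. Errfi1 and Epha2 correlated at 0.954 there, Atf6 with Errfi1 at 0.981 and Ankrd1 with Epha2 at 0.971. The 12 points share 4 groups and the same mock libraries, so these values are a description.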

How the data were processed

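RNA from 12 L929 libraries was sequenced on a BGISEQ-500. Bowtie2 2.2.5, allowed 200 alignments a read, and RSEM were used by the authors to obtain expression per gene. The submitters' processing notes name GRCm38.p5, and the annotation is not given in the sources used here. The deposited values are FPKM per Entrez gene, rounded to 2 decimals. Of 17571 genes, 17450 had a RefSeq symbol. Depth is unknown: of 5625 low values, 52.4% lay within 0.1 of a whole multiple of a gene's smallest value, so whole reads were not recovered and no count model was used.

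Genes reaching 1 FPKM in 3 or more libraries (10412) were analysed as log2(FPKM + 1) with limma 3.58.1 in R 4.3.3 (4 group means, contrasts, empirical Bayes with a trend), with Python 3.11.15 for the rest. The fit was tested on simulated data in which each gene had the same spread in all groups. The data differ from that: the SD of log2 Etv5 was 0.046 in mock and 1.08 with pEGFP-N1. The simulation therefore does not test the fit under unequal spread. Alternative settings changed the pseudocount (0.1 or 0.01), the filter (none, or mean FPKM from 5), the scaling (TPM, 75th percentile, quantile) or the trend, fitted fewer groups, added a replicate block, left out 1 library or both that stood apart, or took the thresholds of the study (FDR 0.001 and log2 fold change 2). Those thresholds were applied to the limma adjusted p and to differences of log2(FPKM + 1). The study used another test, PossionDis, so these counts are not what its method would give. Fits of 2 groups with a block or with 1 library left out, and list counts without genes under 1 FPKM in every mock or BX795 library, were added after the data were seen.

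The members and lists were chosen with earlier results of these data known. Beside the 10 members, the text names from each list the genes called in BX795 minus mock over 12 libraries and up to 3 per direction by smallest unadjusted p under 0.05, and the 5 genes most correlated with Errfi1 and with Epha2. Coordinates are from GENCODE vM21 (GRCm38) and promoter sequences from RefSeq (GRCm38.p6), matched by symbol. Promoters of the remaining members are not shown.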

Additional observations from a re-analysis of the deposited data

How the results depend on the processing

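The counts of called genes depended on which libraries shared the fit. BX795 minus mock gave 7 calls over 12 libraries, 2150 with only these groups, 2282 with these groups and the replicate number as a block, 1466 without both libraries that stood apart, and 0 at the thresholds of the study. Leaving out 1 library gave 0 to 149 calls (149 without pEGFP-N1 replicate 2, 82 without BX795 + pEGFP-N1 replicate 1). With mock and BX795 alone it gave 858, 975 and 1066 without mock replicates 1, 2 and 3, and 4396, 968 and 1138 without BX795 replicates 1, 2 and 3. The 8 other members gave 0 lower calls over 12 libraries and 5 in each of the former 3 fits, with 0 to 1 and 5 to 6 when a library was left out. BX795 + pEGFP-N1 minus pEGFP-N1 gave 0 calls, 2 without the filter and 1886 without both libraries, and 6 members lower there against 0.

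Plasmid against mock gave 7 calls, 2 without the filter, 4 with only these groups, 0 with these and the block, 391 without both libraries, 0 at the thresholds of the study and 0 to 17 with 1 library left out. BX795 + pEGFP-N1 minus BX795 gave 0, and 1 without the filter. The difference between BX795 effects gave 0, 1 without the filter, 132 without both libraries and 0 to 1 with 1 library left out. The mean BX795 effect over both backgrounds gave 0, 1 without the filter, 3 without the trend, 1 with the block, 3522 without both libraries and 0 to 821 with 1 left out. The replicate block over 12 libraries gave 7 calls for BX795 minus mock and 5 for the plasmid. Deviations of same-numbered libraries correlated between 0.0217 and 0.05 for mock and BX795 and between -0.183 and 0.635 for both transfected groups, so the numbers were not taken as pairing.

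Directions of small differences reversed. For BX795 minus mock, Spry2 ran from -0.02 to 0.01 with 1 library left out. For BX795 + pEGFP-N1 minus pEGFP-N1, Spry2 was 0.01 with TPM, and with 1 or both libraries left out it ran from -0.12 to 0.11, Errfi1 from -0.21 to 0.02, Dusp4 from -0.92 to 0.01, Spry4 from -0.52 to 0.01, Fosl1 from -0.21 to 0.2 and Egr1 from -0.17 to 0.22. For the plasmid alone, Dusp4 ran from -0.32 to 0.31, Fosl1 from -0.06 to 0.27 and Etv5 from -0.93 to 0.03. FPKM without read totals limits what can be said of Spry4 and Egr1, which lie near 1 FPKM.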
